A study of Mus musculus with 12 samples.

Results

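The genes described here are 10 mouse genes of osteoclast formation and bone resorption: Dcstamp, Ocstamp, Tnfrsf11a, Nfatc1, Acp5, Car2, Calcr, Oscar, Atp6v0d2 and Itgb3. They were taken by name from the 22180 genes measured on the arrays, each through the probe set annotated to it, and all 10 were found with 1 probe set each. They were measured in cultures labelled as mouse primary macrophages and not as osteoclasts. The macrophage lineage includes precursors that can become osteoclasts. Whether these cultures held osteoclast-like cells was not tested. The 4 groups had 3 arrays each. KO TAMs were Cd36 knockout macrophages cultured for 72 h with 5TGM1, a mouse multiple myeloma cell line, to give tumour-associated macrophages (TAMs). KO macrophages were Cd36 knockout cells without the myeloma line. WT TAMs were wild-type macrophages cultured for 72 h with 5TGM1, and WT macrophages were wild-type cells without it. Cd36 encodes a scavenger and fatty acid receptor. The medium was RPMI with serum and antibiotics for all groups. The sources used here give neither the strain, age and tissue of origin of the cells, nor the time in culture of cells without 5TGM1, nor whether the myeloma cells were removed before RNA extraction.

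Osteoclasts form when precursors of the macrophage lineage receive M-CSF through its receptor Csf1r and RANK ligand through RANK. RANK signals through TRAF6, and with calcium signals from receptors that carry ITAM adaptors it raises NFATc1, the transcription factor that switches on the osteoclast programme. Fusion proteins then join the precursors into a cell with many nuclei, which seals itself to bone through an integrin, pumps acid with a proton pump and digests the matrix with acid hydrolases and proteases. Myeloma is known for bone lesions in which osteoclasts are overactive. Macrophages outside bone express several of these genes without becoming osteoclasts.

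Values are log2 of the deposited array intensities, and differences are on the log2 scale ± their standard error (SE) from limma, with 3 arrays in every group. A gene was called changed at a limma p under 0.05 after Benjamini-Hochberg adjustment over all 22180 genes. Levels of different genes come from different probes and are not compared. The same WT macrophage arrays serve in the comparison of WT TAMs with WT macrophages and of KO with WT macrophages, and each other group is likewise used in more than 1 comparison.

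Before the results, the arrays were set against their labels. Cd36 read 8.45 to 9.66 on the 6 KO arrays, against 12.1 to 12.53 on the 6 WT arrays. Xist read 3.91 to 4.35 on the 6 KO arrays, against 11.08 to 11.32 on the 6 WT arrays, so the KO cells had the pattern of males and the WT cells that of females, and genotype and sex cannot be told apart in any KO against WT value below. The pan-macrophage genes Adgre1 and Cd68 read 12.05 to 13.07 on all 12 arrays. Arrays WT TAM 2 and KO TAM 1 stood apart from their groups. They had 414 and 550 genes more than 1 log2 unit from the mean of both other arrays of the group. KO TAM 3 also stood apart with 303 genes, against 4 to 113 genes on the other 9 arrays. TAM arrays varied more than macrophage arrays, and 1 spread per gene was estimated over all 12.

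In WT cells, co-culture with the myeloma line went with lower levels of most of the 10 osteoclast genes. In WT TAMs 6 of the 10 genes fell relative to WT macrophages and none was called higher: Dcstamp, Ocstamp, Tnfrsf11a, Nfatc1, Acp5 and Car2. Among all genes 11.5% were called in this comparison, 5.66% as lower and 5.89% as higher. The median difference of the 10 genes was -0.73, against 0.01 over all genes. Array values did not overlap between the groups for 8 of the 10 genes, against 30.1% of all genes. WT TAM arrays were all lower for 7 of them and all higher for 1, Atp6v0d2, against 14.6% and 15.5% of all genes. In bulk RNA, fewer cells of a type and less RNA per cell cannot be told apart.

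In KO TAMs Nfatc1 fell and Atp6v0d2 rose relative to KO macrophages, so that 2 of the 10 genes were called, against 6.53% of all genes (2.9% as higher and 3.63% as lower). Array values did not overlap for 4 of the 10 genes, against 26.3% of all genes. The median difference of the 10 genes was -0.01, the same as over all genes.

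Between genotypes, the cells differed before co-culture. In KO macrophages 6 of the 10 genes were lower than in WT macrophages: Dcstamp, Ocstamp, Tnfrsf11a, Car2, Oscar and Atp6v0d2. None was called higher. Array values did not overlap for 9 of the 10 genes, against 38.5% of all genes, and every KO array was lower for 8 of them, against 17.7% of all genes. Of all genes 11.3% were called, 6.13% as lower and 5.19% as higher, and the median difference was -0.66 for the 10 genes and 0.04 for all genes. After co-culture, 1 of the 10 genes was called between KO TAMs and WT TAMs, Acp5, which was higher in KO TAMs. Of all genes 12.2% were called in that comparison, 5.03% as higher and 7.19% as lower. Array values did not overlap for 1 of the 10 genes, against 24.6% of all genes.

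**Figure D1:**
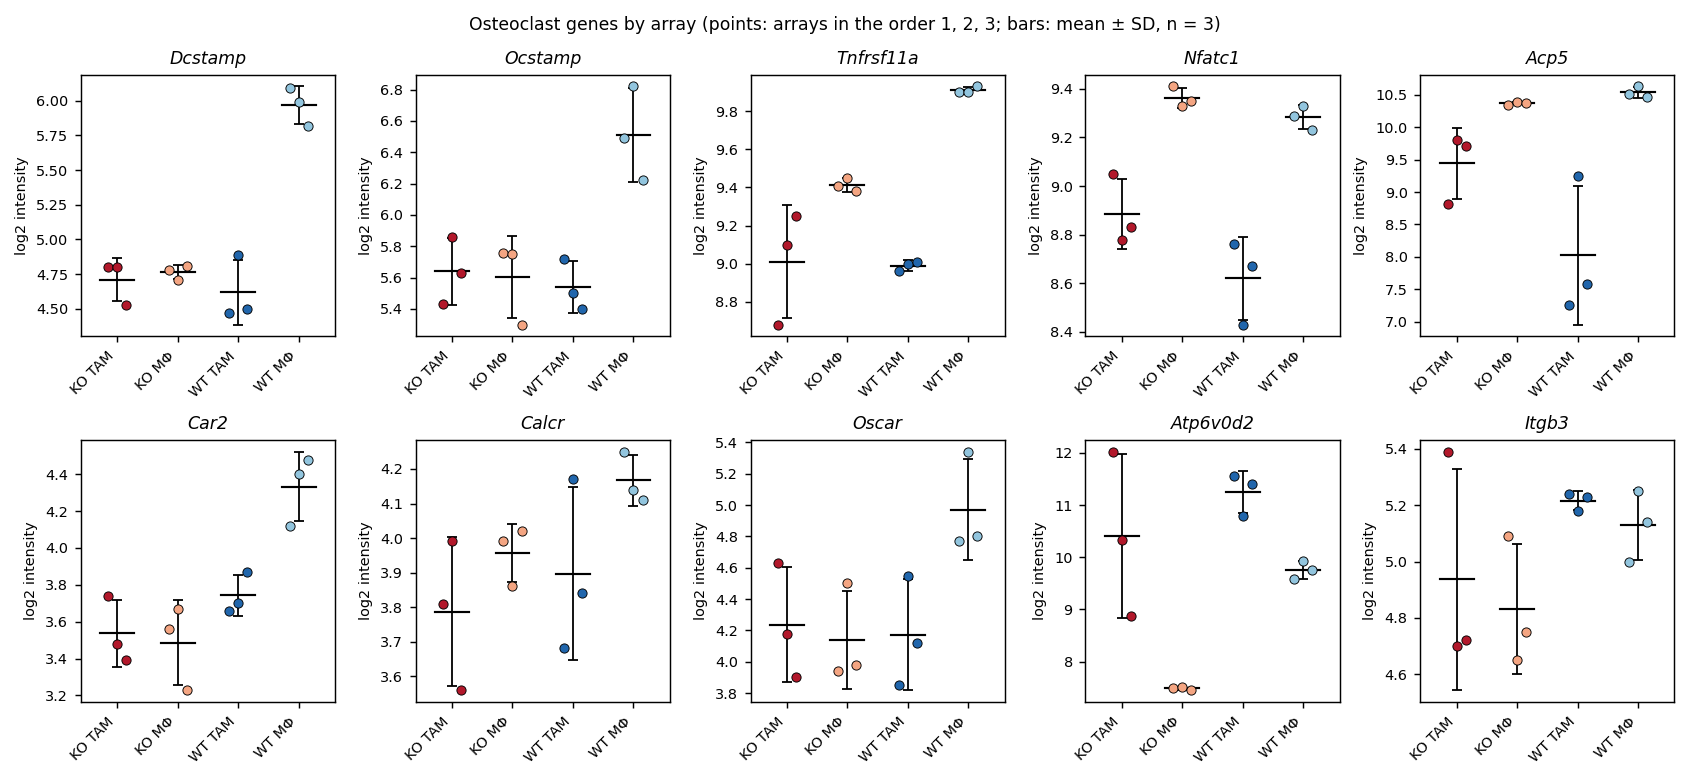
Log2 intensity of each of the 10 osteoclast genes (y axis, log2 scale, a range of its own per panel) on the 12 arrays, by group on the x axis, with points for arrays 1, 2 and 3 and bars for the mean ± SD (n = 3). Dcstamp, Ocstamp, Car2 and Oscar are highest in WT macrophages, where Dcstamp averages 5.97 against 4.62 to 4.77 in the other groups, and Atp6v0d2 runs between 7.46 and 12.02.

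The fusion genes are described first. Dcstamp encodes DC-STAMP, a membrane protein that precursors need for cell fusion. It read 4.80, 4.80 and 4.53 on KO TAM arrays 1, 2 and 3 and 4.78, 4.71 and 4.81 on KO macrophage arrays. On WT TAM arrays it read 4.47, 4.89 and 4.50, against 6.09, 5.99 and 5.82 on WT macrophage arrays. WT macrophages thus stood above all the other groups, and the other 3 groups overlapped. In WT TAMs Dcstamp fell by 1.34 ± 0.13 (2.53-fold) relative to WT macrophages, with a limma adjusted p of 8.24e-05. In KO macrophages it fell by 1.2 ± 0.13 (2.29-fold) relative to WT macrophages, with a limma adjusted p of 0.000262. Between KO TAMs and KO macrophages it differed by -0.06 (95% interval -0.33 to 0.21, limma adjusted p 0.852), and between KO TAMs and WT TAMs by 0.08 (limma adjusted p 0.747).

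Ocstamp encodes OC-STAMP, a related membrane protein of osteoclast fusion. It read 5.43, 5.86 and 5.63 on KO TAM arrays and 5.76, 5.75 and 5.30 on KO macrophage arrays. The WT TAM arrays read 5.72, 5.50 and 5.40, against 6.49, 6.82 and 6.22 on WT macrophage arrays. As for Dcstamp, WT macrophages were apart from the other 3 groups, which overlapped. Ocstamp fell by 0.97 ± 0.17 in WT TAMs (1.96-fold, limma adjusted p 0.00351) and by 0.91 ± 0.17 in KO macrophages (1.87-fold, limma adjusted p 0.0061), both relative to WT macrophages. Its difference between KO TAMs and KO macrophages was 0.04, with a 95% interval of -0.34 to 0.41 and a limma adjusted p of 0.944. These calls of Dcstamp and Ocstamp held without any 1 of the 6 arrays they rest on.

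Atp6v0d2 encodes the d2 subunit of the proton pump's membrane sector, which is abundant in osteoclasts and takes part in precursor fusion in mice. It read 12.02, 10.33 and 8.87 on KO TAM arrays, against 7.50, 7.52 and 7.46 on KO macrophage arrays. On WT TAM arrays it read 11.56, 10.79 and 11.40, against 9.58, 9.93 and 9.76 on WT macrophage arrays. Both TAM groups lay wholly above the macrophages of their genotype, and the KO TAM arrays were widely spread. In KO TAMs Atp6v0d2 rose by 2.92 ± 0.55 (7.55-fold) relative to KO macrophages, with a limma adjusted p of 0.0097. In WT TAMs the difference from WT macrophages was 1.49 ± 0.55, with a limma adjusted p of 0.115. In KO macrophages Atp6v0d2 was 2.27 ± 0.55 log2 units lower than in WT macrophages (4.81-fold, limma adjusted p 0.0211), the largest genotype difference among the 10 genes before co-culture.

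The calls of Atp6v0d2 depended on the arrays in the fit, and the cause was not tested. The KO against WT macrophage call was lost without any 1 of the 6 arrays, with adjusted p up to 0.0729, whereas a limma fit of those 6 arrays alone gave 2.18e-05. The KO TAM call kept its side of the threshold without any 1 of the 6 arrays, with adjusted p up to 0.04, but was lost in a fit of those 6 arrays alone, with an adjusted p of 0.0751. Between KO TAMs and WT TAMs the difference was -0.84 with an adjusted p of 0.391, and without KO TAM 1 it was -1.65 with an adjusted p of 0.00686.

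Among the receptors, Tnfrsf11a encodes RANK itself. It read 8.68, 9.10 and 9.25 on KO TAM arrays, against 9.41, 9.45 and 9.38 on KO macrophage arrays. On WT TAM arrays it read 8.96, 9.0 and 9.01, against 9.90, 9.90 and 9.93 on WT macrophage arrays. The WT groups were far apart for their small spread, and KO macrophages lay between WT macrophages and both TAM groups. In WT TAMs Tnfrsf11a fell by 0.92 ± 0.12 (1.9-fold, limma adjusted p 0.000557). In KO TAMs the difference from KO macrophages was -0.41 ± 0.12 with a limma adjusted p of 0.0688, which became 0.019 without KO TAM 3. In KO macrophages Tnfrsf11a was 0.50 ± 0.12 log2 units lower than in WT macrophages, with a limma adjusted p of 0.0199. That call was lost without any 1 of the 6 macrophage arrays (adjusted p up to 0.0677), and a limma fit of the 6 arrays alone gave 0.00125. The TAM groups differed by 0.02, with a limma adjusted p of 0.952.

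Oscar encodes a collagen receptor that gives the costimulatory calcium signal through the adaptor FcRγ. It read 4.63, 4.18 and 3.90 on KO TAM arrays and 3.94, 4.50 and 3.98 on KO macrophage arrays. The WT TAM arrays read 3.85, 4.55 and 4.12, against 4.77, 5.34 and 4.80 on WT macrophage arrays. WT macrophages were above every array of the other groups. In KO macrophages Oscar fell by 0.83 ± 0.24 relative to WT macrophages with a limma adjusted p of 0.0426. The call was lost without WT macrophage 1, 2 or 3 or KO macrophage 1 or 3, with adjusted p up to 0.16. In WT TAMs its difference from WT macrophages was -0.79 ± 0.24, just short of the threshold with a limma adjusted p of 0.0508, and the adjusted p was 0.0253 without WT TAM 2.

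Calcr encodes the calcitonin receptor, a marker of the mature osteoclast. It read 3.81, 3.99 and 3.56 on KO TAM arrays and 3.99, 3.86 and 4.02 on KO macrophage arrays. It read 3.68, 4.17 and 3.84 on WT TAM arrays and 4.25, 4.14 and 4.11 on WT macrophage arrays. The range of 3.56 to 4.25 lies about where the Y-linked genes read on the WT arrays, whose cells had the female pattern (3.05 to 4.10), although each probe set has a background of its own. Calcr was called in none of the 5 tests, with limma adjusted p between 0.251 and 0.916.

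Itgb3 encodes the β3 integrin subunit, which with αv forms the receptor that anchors osteoclasts to bone. It read 5.39, 4.70 and 4.72 on KO TAM arrays and 5.09, 4.65 and 4.75 on KO macrophage arrays. It read 5.24, 5.18 and 5.23 on WT TAM arrays and 5.00, 5.25 and 5.14 on WT macrophage arrays. Arrays 2 and 3 of KO TAMs and of KO macrophages lay below all WT arrays, and array 1 of each KO group did not. No limma test called it, with the smallest adjusted p, 0.308, between KO and WT macrophages. Without KO TAM 1 its difference between KO TAMs and WT TAMs was -0.5, with a limma adjusted p of 0.0177.

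Nfatc1, the master transcription factor of the osteoclast, was lower in TAMs of both genotypes. It read 9.05, 8.78 and 8.83 on KO TAM arrays, against 9.41, 9.33 and 9.35 on KO macrophage arrays. On WT TAM arrays it read 8.76, 8.43 and 8.67, against 9.29, 9.33 and 9.23 on WT macrophage arrays. Every TAM array was below every macrophage array. Nfatc1 fell by 0.66 ± 0.10 in WT TAMs (1.58-fold, limma adjusted p 0.00149) and by 0.48 ± 0.10 in KO TAMs (limma adjusted p 0.0169), each relative to macrophages of the same genotype. The KO call was lost without KO macrophage 1, 2 or 3 or KO TAM 2 and in a fit of the 6 KO arrays alone, with adjusted p up to 0.0695. Between genotypes the limma adjusted p was 0.678 for macrophages (difference 0.08) and 0.119 for TAMs (difference 0.27).

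Of the resorption genes, Acp5 encodes tartrate-resistant acid phosphatase, the enzyme used to stain osteoclasts, which some tissue macrophages also make. It read 8.81, 9.81 and 9.71 on KO TAM arrays, against 10.35, 10.39 and 10.38 on KO macrophage arrays. On WT TAM arrays it read 7.25, 9.25 and 7.58, against 10.51, 10.63 and 10.47 on WT macrophage arrays. All TAM arrays were below all macrophage arrays, and WT TAM 2 lay well above the other WT TAM arrays. In WT TAMs Acp5 fell by 2.51 ± 0.41 (5.7-fold, limma adjusted p 0.00213), the largest fall among the 10 genes, and by 3.12 without WT TAM 2. In KO TAMs the difference from KO macrophages was -0.93 ± 0.41 with a limma adjusted p of 0.229. Acp5 was 1.42 ± 0.41 log2 units higher in KO TAMs than in WT TAMs (2.67-fold, limma adjusted p 0.0424), although WT TAM 2 at 9.25 was above KO TAM 1 at 8.81. That call was lost without WT TAM 1 or 3 or KO TAM 2 or 3, with adjusted p up to 0.15, and in a fit of the 6 TAM arrays alone, and the difference without WT TAM 2 was 2.03.

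Car2 encodes carbonic anhydrase II, which supplies the protons for acid secretion. It read 3.74, 3.48 and 3.39 on KO TAM arrays and 3.56, 3.67 and 3.23 on KO macrophage arrays. It read 3.66, 3.7 and 3.87 on WT TAM arrays, against 4.12, 4.40 and 4.48 on WT macrophage arrays. Only WT macrophages stood apart. All other arrays read within the 3.05 to 4.10 of the Y-linked genes in cells with the female pattern, so these groups may be at background and the sizes below may understate the change. Car2 fell by 0.85 ± 0.14 in KO macrophages (limma adjusted p 0.00264) and by 0.59 ± 0.14 in WT TAMs (limma adjusted p 0.0165), both relative to WT macrophages. The WT TAM call was lost without WT macrophage 2 or 3 or WT TAM 1, with adjusted p up to 0.0765.

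RefSeq promoter windows, 250 bases before to 50 bases after a gene's start on assembly GRCm38.p6, were at hand for 4 of the 10 genes (Tnfrsf11a, Acp5, Calcr and Oscar), 7 windows in all. Those of 3 genes that moved with co-culture or genotype are shown so that the letters can be set beside the levels. Both strands were searched for the NFAT core GGAAA, the AP-1 motif TGANTCA, the M-box TCATGTG of MITF and its relatives, and the PU.1 core GAGGAA, which can overlap the NFAT core. Capitals mark the matched letters, and each window is written 5′ to 3′ along the gene's strand.
Tnfrsf11a, chr1:105780473-105780772, plus strand: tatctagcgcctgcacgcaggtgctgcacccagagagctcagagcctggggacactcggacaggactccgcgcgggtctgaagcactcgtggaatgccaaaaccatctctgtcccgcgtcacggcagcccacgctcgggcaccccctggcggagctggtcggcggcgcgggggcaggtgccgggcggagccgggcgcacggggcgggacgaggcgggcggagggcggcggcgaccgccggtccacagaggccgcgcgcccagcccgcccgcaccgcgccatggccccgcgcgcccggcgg
Acp5, chr9:22130549-22130848, minus strand: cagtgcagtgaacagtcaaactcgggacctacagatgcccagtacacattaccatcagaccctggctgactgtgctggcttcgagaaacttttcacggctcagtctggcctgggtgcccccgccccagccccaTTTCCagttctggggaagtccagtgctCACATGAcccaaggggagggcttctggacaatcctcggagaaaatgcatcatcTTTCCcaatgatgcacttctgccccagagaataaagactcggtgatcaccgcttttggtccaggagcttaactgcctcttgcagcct
Oscar, chr7:3616108-3616407, minus strand: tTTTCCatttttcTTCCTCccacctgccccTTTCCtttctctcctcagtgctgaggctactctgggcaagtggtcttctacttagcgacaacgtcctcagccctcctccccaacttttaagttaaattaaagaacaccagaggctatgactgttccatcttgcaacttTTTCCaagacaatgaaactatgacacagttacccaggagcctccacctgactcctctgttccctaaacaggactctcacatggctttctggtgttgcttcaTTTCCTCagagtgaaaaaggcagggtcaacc
The Tnfrsf11a window held none of the 4 motifs. The Acp5 window, 1 of 3 listed starts of the gene, held the M-box at position -90 and the NFAT core at -117 and -37, while the windows of the other 2 starts held no M-box and 1 NFAT core each. The Oscar window held 4 NFAT cores and 2 PU.1 cores. Of all 32851 windows of this length, 61.3% held the NFAT core, 7.81% the AP-1 motif, 3.77% the M-box and 28.3% the PU.1 core. These matches describe the letters and are not tested binding sites.

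**Figure D2:**
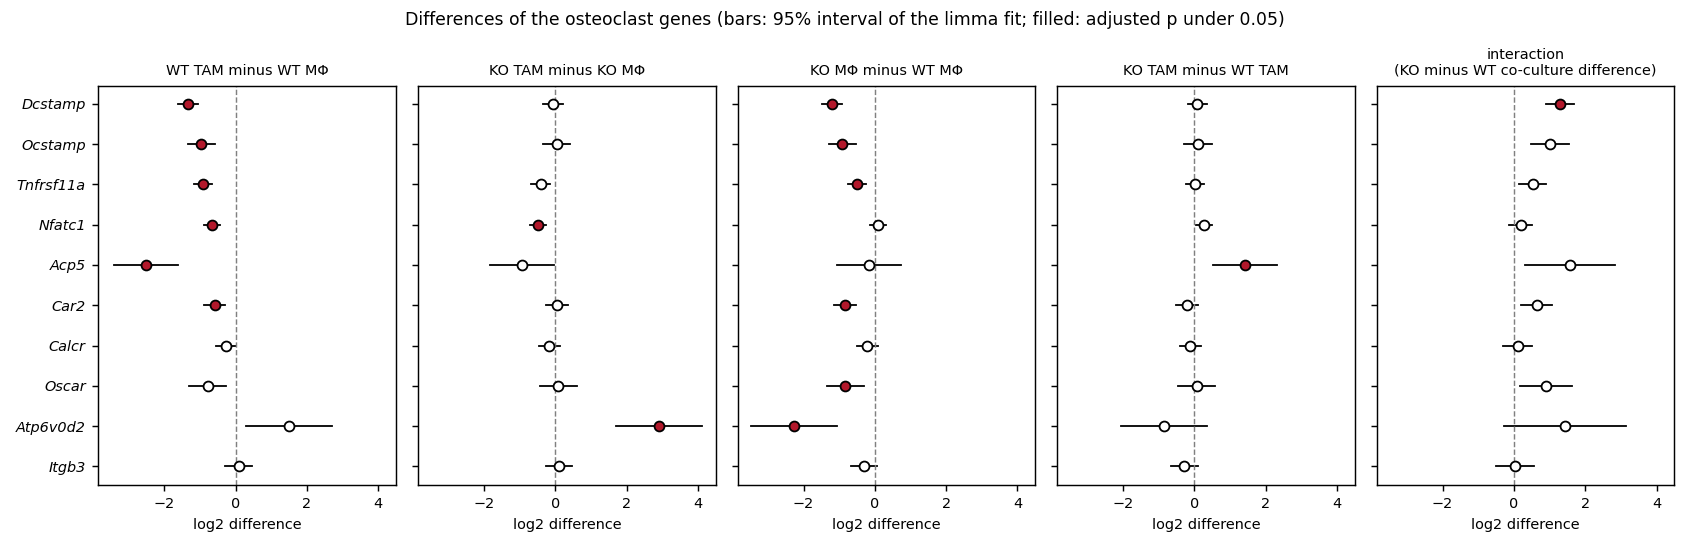
Log2 differences of the 10 genes (x axis) in the 4 comparisons and their interaction, 1 gene per row, with bars for the 95% interval of the limma fit and filled points for an adjusted p under 0.05. Filled points lie left of 0 for 6 genes in WT TAMs and for 6 genes in KO macrophages, and Dcstamp is the filled point of the interaction.

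Whether co-culture changed the genes differently in the genotypes was tested as an interaction, the KO co-culture difference minus the WT one. Dcstamp alone of the 10 genes was called, with 1.28 ± 0.18 and a limma adjusted p of 0.0122, against 0.194% of all genes called (0.104% above 0 and 0.0902% below 0). This call was lost without WT macrophage 1 or 2 or KO macrophage 1 or 3, with adjusted p up to 0.0558. Outside WT macrophages Dcstamp read 4.47 to 4.89, below the median level of all genes, 5.34. A further fall with co-culture in KO cells may not have been readable there, and this was not tested. Ocstamp had 1.01 ± 0.25 (limma adjusted p 0.152), Oscar 0.89 ± 0.34 (limma adjusted p 0.399) and Acp5 1.58 ± 0.58 (limma adjusted p 0.379). The interaction value was above 0 for all 10 genes, against 45.7% of all genes, with a median of 0.76. Without WT TAM 2 the Acp5 interaction was 2.19 with an adjusted p of 0.011, and without KO TAM 1 that of Tnfrsf11a had an adjusted p of 0.00827. Leaving out WT TAM 2 and KO TAM 1 together gave 4 interaction calls among the 10 genes, Dcstamp, Ocstamp, Tnfrsf11a and Acp5. It gave 9 calls in WT TAMs, 3 in KO TAMs, 6 in KO against WT macrophages and 3 in KO against WT TAMs. These 2 arrays were picked for standing apart in these data, and KO TAM 3 was kept. The number of all genes called also moved with the alternatives, for the interaction from 14 to 1496, against 43 in the main fit. These counts are therefore not to be set against the main fit's 0.194%.

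**Figure D3:**
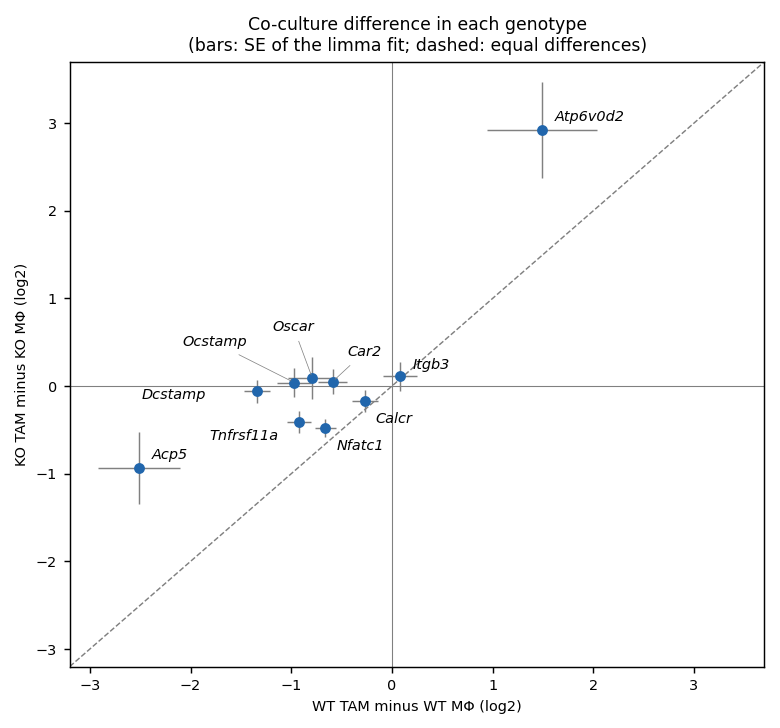
The co-culture difference of each of the 10 genes in KO cells (y axis, KO TAM minus KO macrophage, log2) against that in WT cells (x axis, WT TAM minus WT macrophage, log2), with bars for the SE of the limma fit and a dashed line for equal differences. All 10 points lie above the dashed line, Dcstamp at -0.06 in KO cells and -1.34 in WT cells, and Acp5 at -0.93 in KO cells and -2.51 in WT cells. Itgb3 lies almost on the line, at 0.11 in KO cells and 0.08 in WT cells.

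The levels fell in a few orders. For 7 genes, Dcstamp, Ocstamp, Tnfrsf11a, Acp5, Car2, Calcr and Oscar, the mean was highest in WT macrophages, and no array of the next group reached the WT macrophage arrays. For Calcr, WT TAM 2 at 4.17, in a group further down, was within their range. Below WT macrophages the remaining groups of Dcstamp, Ocstamp, Car2, Calcr and Oscar did not separate. For Nfatc1 the order was KO macrophages (9.36), WT macrophages (9.28), KO TAMs (8.89) and WT TAMs (8.62), with no overlap between neighbours, although the limma test called neither genotype difference. For Atp6v0d2 it was WT TAMs (11.25), KO TAMs (10.41), WT macrophages (9.76) and KO macrophages (7.49), and only the last step was free of overlap.

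Other genes of the osteoclast pathway were read from lists by role, 127 genes beside the 10, of which 120 were measured. Their called share was 39.2% in WT TAMs (27 higher and 20 lower of 120, against 11.5% of all genes) and 24.2% in KO TAMs (19 higher and 10 lower, against 6.53%), each relative to macrophages of the same genotype. It was 21.7% in KO against WT macrophages (11 higher and 15 lower, against 11.3%) and 20.8% in KO against WT TAMs (11 higher and 14 lower, against 12.2%). Most of these genes are well expressed in macrophages: 107 of the 120 lay above the median level of all genes, 5.34. Of all genes above that level 20.9% were called in WT TAMs, 12.1% in KO TAMs, 19.8% in KO against WT macrophages and 21.5% in KO against WT TAMs, against 43%, 26.2%, 23.4% and 23.4% of the 107. The genotype shares were thus near the background of expressed genes. Of the 10 genes, 5 lay above that level, and 4 of these 5 were called in WT TAMs and 2 in KO TAMs. Between genotypes 3 of the 5 were called in macrophages and 1 in TAMs. Shares called higher or lower below are set against all genes only.

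**Figure D4:**
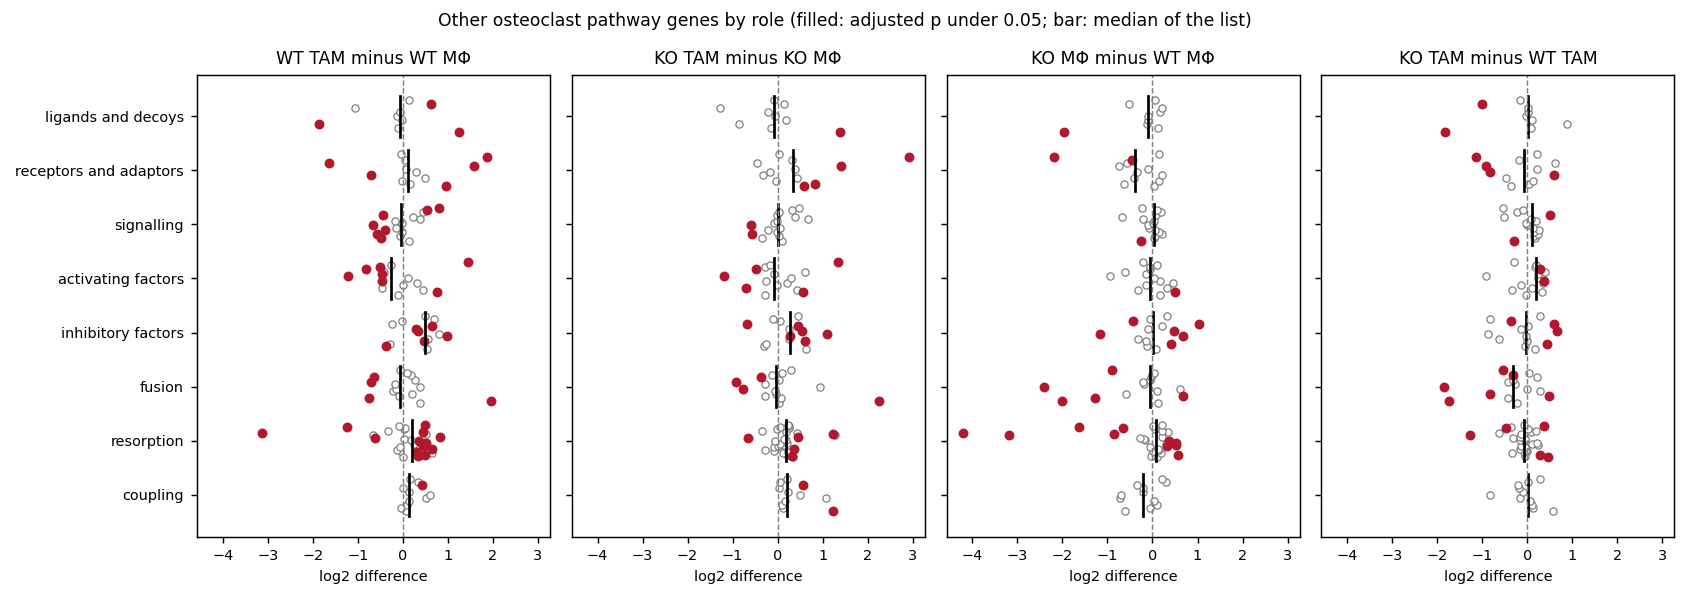
Log2 differences (x axis) of the 120 other osteoclast pathway genes measured, by role on the y axis, in the 4 comparisons, with filled points for an adjusted p under 0.05 and a black bar for the median of each list. In WT TAMs 14 of 28 resorption genes are filled, 11 of them right of 0. The 14 are 50% of the list, against 11.5% of all genes and 20.9% of genes above the median level.

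RANK ligand and its decoy stand at the start of the pathway. Tnfsf11, which encodes RANK ligand, read 3.84 to 4.37 on all 12 arrays and was called in no comparison. Tnfrsf11b, which encodes the decoy receptor osteoprotegerin, read 5.29 to 5.33 on KO TAM arrays, against 5.89 to 6.81 on WT TAM arrays, a difference of -1 with a limma adjusted p of 0.0039. Il1b, an inflammatory cytokine that drives resorption, fell by 1.86 in WT TAMs relative to WT macrophages, with a limma adjusted p of 0.0039. Csf1, which encodes M-CSF, read 8.40, 7.67 and 6.61 on KO TAM arrays and 6.27, 5.96 and 6.27 on KO macrophage arrays. It read 9.02, 9.95 and 9.24 on WT TAM arrays and 8.15, 8.21 and 8.05 on WT macrophage arrays. Csf1 was lower in KO than in WT cells, by 1.97 in macrophages (limma adjusted p 0.00451) and by 1.84 in TAMs (limma adjusted p 0.00579). Both Csf1 and Tnfrsf11b were highest on WT TAM 2, the array with the highest summed stromal markers. The part of stromal cells in these differences was not tested. In a fit of the 6 TAM arrays alone the TAM calls were lost for Csf1 (adjusted p 0.0777) and Tnfrsf11b (adjusted p 0.0567).

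Of 12 receptors and adaptors, 5 were called in WT TAMs (41.7%, against 11.5% of all genes and 20.9% of genes above the median level). In KO TAMs 4 were called (33.3%, against 6.53% and 12.1%). Trem2, a receptor that signals through the ITAM adaptor DAP12, read 10.74, 10.03 and 8.87 on KO TAM arrays, against 6.96, 7.10 and 6.85 on KO macrophage arrays. On WT TAM arrays it read 10.99, 10.92 and 11.16, against 9.03, 9.24 and 9.20 on WT macrophage arrays. It rose by 2.91 in KO TAMs (limma adjusted p 0.000522) and by 1.87 in WT TAMs (limma adjusted p 0.00331), and was 2.19 lower in KO than in WT macrophages, a difference of -2.19 with a limma adjusted p of 0.00171. Plxna1, a semaphorin receptor that works with Trem2 and DAP12, rose by 1.41 in KO TAMs (limma adjusted p 0.00425) and by 1.59 in WT TAMs (limma adjusted p 0.00102). With its probe sets averaged the values were 0.81 in KO TAMs and 0.85 in WT TAMs, and the KO call was lost in a fit of the 6 KO arrays alone (adjusted p 0.0555). Tyrobp, which encodes DAP12, was called nowhere. Csf1r rose by 0.84 in KO TAMs with a limma adjusted p of 0.0212, a call lost without any 1 of the 3 KO macrophage arrays (adjusted p up to 0.0748) and in a fit of the 6 KO arrays alone (adjusted p 0.106).

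Transcription factors moved both ways. Spi1, which encodes PU.1 and is needed to make osteoclast precursors, fell by 0.81 in WT TAMs with a limma adjusted p of 0.000161. Fos, an AP-1 factor without which osteoclasts do not form, rose by 0.76 in WT TAMs with a limma adjusted p of 0.00436. Mitf, which encodes a partner of PU.1, was called in no comparison. Traf6, the adaptor of RANK, rose by 0.53 in WT TAMs with a limma adjusted p of 0.0395, a call lost without WT macrophage 1, 2 or 3 or WT TAM 1 or 3 (adjusted p up to 0.139). Of 14 inhibitory factors measured, 5 rose in WT TAMs and 5 in KO TAMs, and 1 fell in each. The called share was 42.9% in each, against 11.5% and 6.53% of all genes and 20.9% and 12.1% of genes above the median level. Irf8, a repressor of Nfatc1, rose by 0.54 in KO TAMs relative to KO macrophages (limma adjusted p 0.00432) and was higher in KO than in WT cells, by 0.47 in macrophages (limma adjusted p 0.00569) and 0.66 in TAMs (limma adjusted p 0.000706). Averaging the probe sets of Irf8 ended both genotype calls, with 0.15 in macrophages (adjusted p 0.452) and 0.37 in TAMs (adjusted p 0.0516). Id2, an inhibitor of DNA binding by helix-loop-helix factors, rose by 0.98 in WT TAMs, with a limma adjusted p of 1.86e-05.

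The called share of the signalling genes in WT TAMs was 43.8%, against 11.5% of all genes and 20.9% of genes above the median level. Among them 5 of 16 fell and 2 rose. Those that fell include Map3k14, which encodes the kinase NIK of the alternative NF-κB pathway (-0.58, limma adjusted p 0.00571), and Plcg2, a phospholipase that feeds the calcium signal to NFATc1 (-0.67, limma adjusted p 0.00334). Adam8, a membrane protease with a role in fusion, rose by 1.97 in WT TAMs (limma adjusted p 0.000891) and by 2.25 in KO TAMs (limma adjusted p 0.00076). It was lower in KO than in WT cells, by 2.02 in macrophages (limma adjusted p 0.00106) and by 1.74 in TAMs (limma adjusted p 0.00191). Cd9, a tetraspanin of fusion complexes, was lower in KO cells by 2.42 in macrophages (limma adjusted p 0.000557) and by 1.85 in TAMs (limma adjusted p 0.00186). With its probe sets averaged the differences were -1.13 and -0.87, and both stayed called.

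Among 28 other resorption genes measured, 11 rose and 3 fell in WT TAMs, and 4 rose and 1 fell in KO TAMs. The called shares were 50% and 17.9%, against 11.5% and 6.53% of all genes and 20.9% and 12.1% of genes above the median level. Mmp9, a gelatinase, read 5.53, 5.87 and 5.47 on KO TAM arrays and 5.14, 4.93 and 5.47 on KO macrophage arrays. It read 4.99, 8.14 and 5.66 on WT TAM arrays, against 9.41, 9.43 and 9.35 on WT macrophage arrays. Mmp9 was thus high in WT macrophages, with WT TAM 2 between them and the other arrays. It fell by 3.13 in WT TAMs (limma adjusted p 0.00397) with a difference of -4.07 without WT TAM 2, and it was lower by 4.22 in KO than in WT macrophages (limma adjusted p 0.00103). Ctsk, which encodes cathepsin K, the collagen-degrading protease of osteoclasts, read 6.93, 5.61 and 5.17 on KO TAM arrays and 4.63, 4.30 and 4.99 on KO macrophage arrays. It read 7.18, 7.67 and 6.69 on WT TAM arrays and 7.63, 8.02 and 7.84 on WT macrophage arrays. KO macrophages were below WT macrophages by 3.19 (limma adjusted p 0.000493), and the co-culture difference in WT cells was -0.65 with a limma adjusted p of 0.342.

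The proton pump genes with symbols that begin with Atp6, beside Atp6v0d2, were counted after their values were seen. Of 13 measured, 8 rose in WT TAMs relative to WT macrophages, by 0.32 to 0.65, and 2 rose in KO TAMs relative to KO macrophages, by 0.32 and 0.37. In KO against WT macrophages 5 were higher, by 0.32 to 0.57, while Atp6v0d2 was lower by 2.27. Of all genes 5.89% were called higher in WT TAMs, 2.9% in KO TAMs and 5.19% in KO against WT macrophages. None of the 13 was called lower in any comparison. Tcirg1, which encodes a further pump subunit, was not in this count. It rose by 0.5 in WT TAMs (limma adjusted p 0.00309) and was called in no other comparison. Clcn7, the chloride transporter that balances the pump, rose by 0.83 in WT TAMs, with a limma adjusted p of 0.000577. Slc9b2, a sodium/proton exchanger of osteoclasts, fell by 1.24 in WT TAMs (limma adjusted p 0.000365) and was lower by 1.64 in KO than in WT macrophages (limma adjusted p 0.000108).

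**Figure D5:**
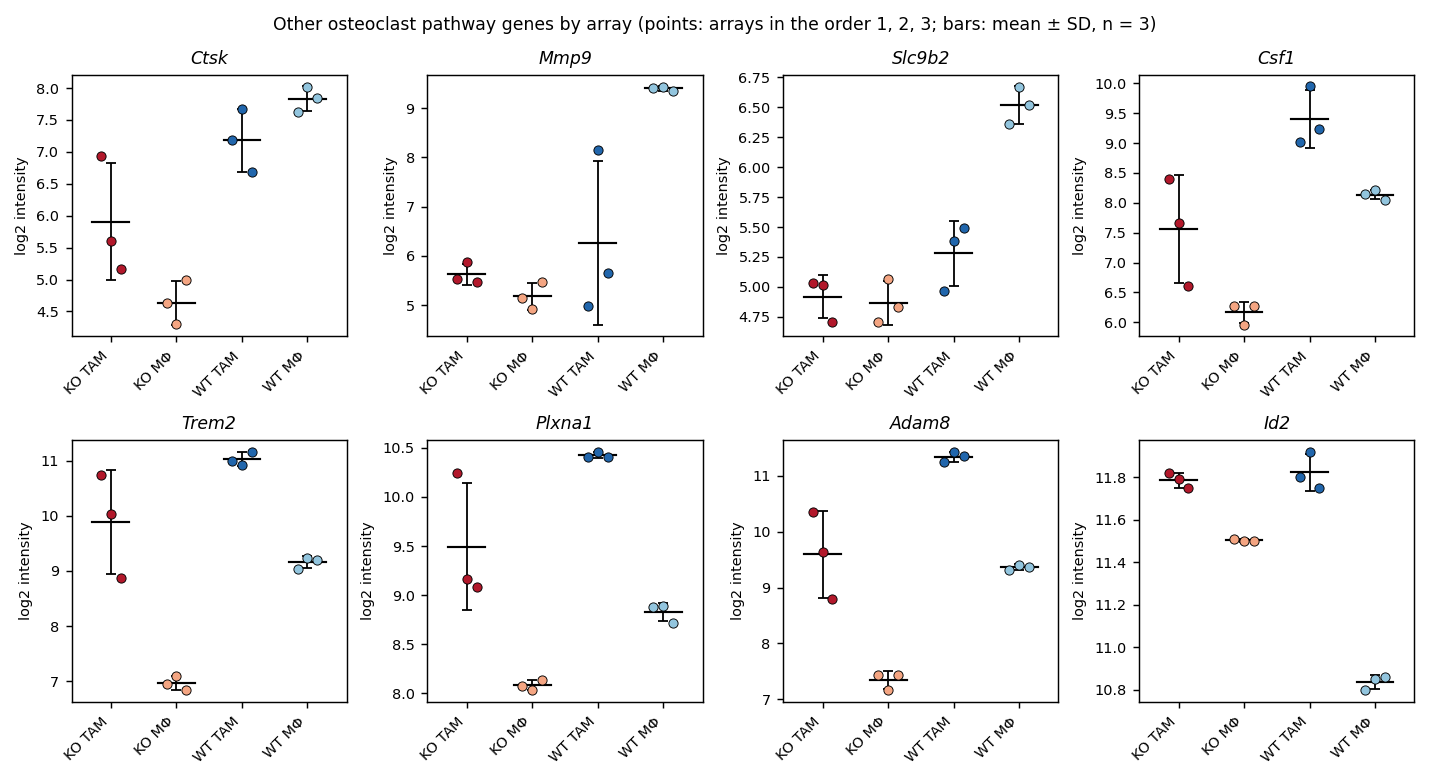
Log2 intensity (y axis, a range of its own per panel) of 8 other osteoclast pathway genes on the 12 arrays, by group on the x axis, with points for arrays 1, 2 and 3 and bars for the mean ± SD (n = 3). Mmp9 reads above 9 in WT macrophages, and Trem2 and Adam8 are higher in TAMs than in macrophages of the same genotype.

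The genes whose array profiles were most like those of the 10 were named by the smallest root mean square difference between centred log2 profiles over 12 arrays, which share group and array effects. Dcstamp was most like Spaca6 (0.16), Abcc4 (0.2) and Serinc2 (0.21). Tnfrsf11a was most like Smyd5 (0.08), Kctd13 (0.1) and Psma6 (0.1), and Nfatc1 was most like Map3k14, Btaf1 and Appl1 (0.1 each). Acp5 was nearest to Fpr2 (0.21), Tmem176b (0.3) and Prkcb (0.37), and Atp6v0d2 to Trem2 (0.34), Csf2rb2 (0.38) and Il13ra1 (0.46). Serinc2 was among the nearest 3 of Dcstamp, Car2 and Oscar.

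Stromal genes such as Col1a1 and Sparc differed with genotype, while plasma cell markers differed in their sum but not as a list. The summed linear intensity of 14 osteoblast and stromal marker genes was 821 to 1638 on KO TAM arrays and 526 to 552 on KO macrophage arrays, against 2440 to 5957 on WT TAM arrays, the highest on WT TAM 2, and 1674 to 1854 on WT macrophage arrays. Of these 14 genes 5 were called lower in KO than in WT macrophages (35.7%, against 11.3% of all genes called) and 7 lower in KO than in WT TAMs (50%, against 12.2%). In WT TAMs 2 rose (14.3%, against 11.5%) and in KO TAMs 3 rose (21.4%, against 6.53%). The summed intensity of 12 myeloma and plasma cell marker genes was 6092 to 7365 on KO TAM arrays and 6218 to 6347 on KO macrophage arrays, against 5274 to 5489 on WT TAM arrays and 5193 to 5427 on WT macrophage arrays. The brightest of the 12 was Slamf7, which read 11.78 to 12.56 on all arrays and which macrophages can also express. Cd79b read 9.04, 9.16 and 9.11 on KO macrophage arrays and 7.83, 7.96 and 7.77 on WT macrophage arrays, a difference not called. On TAM arrays Cd79b read 6.13, 8.30 and 8.17 in KO cells and 5.77, 6.51 and 5.83 in WT cells. Sdc1 went the other way in macrophages, with 5.46, 5.21 and 4.76 on KO arrays and 6.39, 6.34 and 6.27 on WT arrays. The median difference of the 12 between KO and WT macrophages was -0.03. Between KO and WT macrophages 2 of the 12 were called, both lower in KO, and between KO and WT TAMs 2 were called, both higher in KO. Each share was 16.7%, near the 11.3% and 12.2% of all genes called in these comparisons. The plasma cell genes Jchain and Tnfrsf17 read 3.28 to 3.84 and 3.35 to 4.09 on all 12 arrays. Of the stromal genes, Col1a1, which encodes a chain of type I collagen, read 8.60, 8.22 and 6.44 on KO TAM arrays and 5.69, 6.09 and 6.35 on KO macrophage arrays. It read 9.51, 10.88 and 9.83 on WT TAM arrays and 8.54, 8.62 and 8.64 on WT macrophage arrays. The osteoblast genes Sp7 and Ibsp read 4.27 to 5.16 and 3.73 to 4.72 on all 12 arrays. Bglap and Dmp1, on the same list, read 5.28 to 5.94 and 3.71 to 4.16. Dcn, a stromal gene, read 8.08, 6.96 and 8.02 on KO TAM arrays, against 6.64, 7.74 and 6.76 on WT TAM arrays. No gene of this list was called higher in KO than in WT TAMs. The part of stromal and plasma cells in the differences of the 10 genes and of the wider pathway genes was not tested.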

How the data were processed

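Total RNA of 12 mouse macrophage cultures was labelled with biotin using the GeneChip WT PLUS kit and measured on single-channel arrays, per the labels' protocols. The authors deposited 1 table of linear intensity values, 41345 probe sets by 12 arrays, made with RMA per the submitters' processing notes, which also name limma. RMA equalises the arrays' distributions, and so hides changes common to most genes. The scale was judged linear from the values (3.57 to 13500). Tool versions and the genome build are not given in the sources used. No label ties a replicate to an animal or culture of its own, so p-values measure only the spread among these samples, possibly technical.

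Intensities were taken to log2 with no pseudocount and no filter on level. Probe sets with 1 gene symbol were kept (23521, against 1814 with several and 16010 with none), and the probe set with the highest mean was used per gene, giving 22180 genes. The 4 groups were fitted in limma 3.58.1 (R 4.3.3, lmFit and eBayes, 8 residual degrees of freedom), with p adjusted by Benjamini-Hochberg over all genes and called under 0.05. An exact permutation of 3 against 3 arrays cannot go below 0.1 and was not used. The fit was tested on simulated data.

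The 10 genes and the lists (osteoclast roles and markers of other cells) were chosen with earlier results of these data known. All 10 are named throughout. Of each wider list, up to 3 called genes with the largest difference per comparison were eligible to be named, plus Csf1r, Ctsk, Mmp9, Fos, Irf8, Tnfsf11, Tnfrsf11b, Mitf, Traf6 and Tyrobp. Tcirg1 was added afterwards because it encodes a proton pump subunit. Those whose calls held without any 1 array were preferred, a choice made after seeing the data. Some listed genes were not analysed here.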

Additional observations from a re-analysis of the deposited data

Results flagged for a closer look

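In 3 genes the co-culture difference itself differed between the genotypes by the limma interaction test, adjusted over all genes, of which 0.194% were called. For Dcstamp the KO minus WT difference was 1.28 (adjusted p 0.0122), with a co-culture difference of -0.06 in KO cells and -1.34 in WT cells. For Slc9b2, the sodium/proton exchanger, it was 1.29 (adjusted p 0.04). This gene read 5.03, 5.02 and 4.71 on KO TAM arrays and 4.71, 5.07 and 4.83 on KO macrophage arrays, and 4.97, 5.38 and 5.49 on WT TAM arrays against 6.36, 6.67 and 6.52 on WT macrophage arrays. For Id2 it was -0.7 (adjusted p 0.0236). Id2 read 11.82, 11.79 and 11.75 on KO TAM arrays and 11.51, 11.50 and 11.50 on KO macrophage arrays, and 11.80, 11.92 and 11.75 on WT TAM arrays against 10.80, 10.85 and 10.86 on WT macrophage arrays. In each of these genes WT macrophages stood apart from the other 3 groups. In those 3 groups Dcstamp read 4.47 to 4.89 and Slc9b2 4.71 to 5.49, near or below the median level of all genes, 5.34. Whether this low level limited a further fall in KO cells was not tested. Leaving out 1 array ended the call of Slc9b2 for 8 of the 12 arrays (adjusted p up to 0.135: WT macrophage 1, 2 and 3, WT TAM 1, KO macrophage 1, 2 and 3, KO TAM 2). It ended the call of Id2 for 8 arrays as well (adjusted p up to 0.0878: WT macrophage 1, 2 and 3, WT TAM 1, KO macrophage 1, 2 and 3, KO TAM 3). For Dcstamp 4 arrays did so (adjusted p up to 0.0558: WT macrophage 1 and 2, KO macrophage 1 and 3).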

How the results depend on the processing

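Of the 16 calls among the 10 genes, 8 held under every alternative tried: Dcstamp, Ocstamp, Tnfrsf11a, Nfatc1 and Acp5 in WT TAMs, and Dcstamp, Ocstamp and Car2 in KO macrophages. None of the 16 turned its direction. Of 82 calls of wider pathway genes that were followed, 33 held under every alternative. The cause of the changes below was not tested, except that fits on fewer arrays or genes use fewer data. Of the 10 genes, the number called in WT TAMs was 6 in the main fit, 5 to 7 without 1 array and 4 to 9 over the other alternatives, 4 where only genes above the median level were tested and 9 without WT TAM 2 and KO TAM 1 together. In KO TAMs it was 2, became 0 in a fit of only the groups compared, and was 1 to 3 without 1 array. In KO against WT macrophages it was 6, became 3 when only genes above the median level were tested (5 of the 10 genes), and was 3 to 4 without 1 array. In KO against WT TAMs it was 1, became 0 with quantile normalization again, 0 with eBayes trend and robust settings, 0 in a fit of only the groups compared, 3 with array weights and 3 without WT TAM 2 and KO TAM 1 together, and was 0 to 3 without 1 array. For the interaction it was 1, became 0 with genes above the median level only, where Dcstamp is not tested, 4 with array weights and 4 without WT TAM 2 and KO TAM 1 together, and was 0 to 2 without 1 array. Over all genes the number called ranged over alternatives from 1475 to 4049 in WT TAMs, 505 to 2705 in KO TAMs, 1403 to 4923 in KO against WT macrophages, 638 to 4725 in KO against WT TAMs and 14 to 1496 for the interaction.

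Directions that turned were all of differences not called in the main fit. With array weights, differences were -0.02 for Car2 and -0.07 for Itgb3 in KO TAMs, 0.09 for Calcr, -0.22 for Csf1r and 0.1 for Mmp9 in KO against WT TAMs, and -0.15 for Itgb3, 0.02 for Fos and -0.02 for Mitf in the interaction. Without WT TAM 2 and KO TAM 1 together, they were -0.05 for Car2, -0.1 for Oscar and -0.12 for Itgb3 in KO TAMs. In KO against WT TAMs they were 0.01 for Calcr, -0.03 for Mitf, 0.34 for Mmp9 and -0.35 for Csf1r, the last with an adjusted p of 0.00928, and in the interaction -0.22 for Itgb3 and -0.07 for Mitf. With quantile normalization again, KO against WT TAMs gave 0 for Tnfrsf11a, -0.01 for Oscar and -0.01 for Csf1r, and with arrays centred on medians it gave -0.04 for Tnfrsf11a and -0.02 for Csf1r, and the Itgb3 interaction was 0. Without 1 array, turned values ran in KO TAMs over -0.11 to 0.03 for Dcstamp, -0.11 to 0.14 for Ocstamp, -0.08 to 0.14 for Car2, -0.1 to 0.28 for Oscar and -0.12 to 0.24 for Itgb3. In KO against WT TAMs they ran over -0.01 to 0.21 for Ocstamp, -0.1 to 0.18 for Tnfrsf11a, -0.22 to 0.03 for Calcr, -0.14 to 0.25 for Oscar, -0.25 to 0.2 for Csf1r, -0.26 to 0.04 for Traf6 and -1.28 to 0.3 for Mmp9. Tnfsf11 in WT TAMs ran over 0 to 0.22 and Mitf in KO against WT macrophages over -0.01 to 0.07. The interaction ran over -0.01 to 0.23 for Calcr and -0.2 to 0.15 for Itgb3.

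Replicate numbers were shared by the groups, but not every pair with the same number deviated together. Over genes, r was 0.27, 0.25 and 0.03 for pairs 1, 2 and 3 of TAM arrays between genotypes, where 5 of 6 arrays were most like their own number, a hint from the data and not from the design. In the other comparisons r was -0.04 to 0.02, and 0 to 3 of 6 arrays were most like their own number. With the replicate number as a block, 7, 2, 6 and 1 of the 10 genes were called in WT TAMs, KO TAMs, KO against WT macrophages and KO against WT TAMs, and 1 in the interaction. The added call was Oscar in WT TAMs. With 3 arrays a group, and several of the 10 genes near the array's low end, small differences could not be seen.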

Other observations

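Of 11 measured genes by which osteoclasts act on osteoblasts, 2 rose in KO TAMs (18.2%, against 6.53% of all genes) and 1 in WT TAMs (9.09%, against 11.5%). Bmp2, a bone morphogenetic protein, rose by 1.24 in KO TAMs relative to KO macrophages, with a limma adjusted p of 0.012 that became 0.0561 without KO macrophage 3 and 0.0777 in a fit of the 6 KO arrays alone. Among the restraints on osteoclast formation, Nr4a1, an orphan nuclear receptor, fell by 0.67 in KO TAMs relative to KO macrophages (limma adjusted p 0.00898). It was higher in KO than in WT cells, by 1.04 in macrophages (limma adjusted p 0.000511) and by 0.6 in TAMs (limma adjusted p 0.00824). Mmp14, a membrane-bound matrix metalloproteinase, rose by 1.24 in KO TAMs, with a limma adjusted p of 0.00323. Cd200, a ligand with a role in macrophage fusion, was lower by 1.27 in KO than in WT macrophages, with a limma adjusted p of 0.00243.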
